A study of Mus musculus with 12 samples.

Results

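Muscle progenitors of the embryonic head were compared with those of the trunk at embryonic day 9.5 (E9.5) in the mouse. All embryos were of the ICR strain and carried Myf5Cre and RosaYFP: the Cre recombinase is made where the muscle determination gene Myf5 is active and switches on a yellow fluorescent protein (YFP) for good, in those cells and in all their descendants. Head and trunk were taken apart, dispersed to single cells and sorted for fluorescence. The 2 groups are thus YFP+ head cells and YFP+ trunk cells of the same genotype and stage, and a cell stayed in the sort after it had ceased to express Myf5. Each group had 2 arrays, which makes 4 of the 12 arrays of the series, chosen by their titles. The other 8 arrays, of later stages, entered only the estimate of the spread. Nothing in the labels tells if both arrays of a region stem from separate embryos, litters or pools. The p-values therefore rest on the spread between arrays of the same group, pooled over all 12 arrays, and this spread may be technical.

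Trunk muscles form from somites. The dermomyotome, the dorsal part of the somite, depends on the transcription factor Pax3 and carries a Hox code that marks position along the body axis. Most head muscles form instead from the pharyngeal mesoderm of the branchial arches, which also supplies cells to the heart and relies on Tbx1, Isl1, Tcf21 and Msc rather than on Pax3. Both routes lead to Myf5 and Myod1, which commit cells to muscle.

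Of 7721 genes tested, 361 were higher in head and 96 were lower. Values are log2 of the deposited probe set signal. The middle probe set of the 4 arrays lay between 6.76 and 6.78, and a signal under that median is treated as dim. A gene was called where the adjusted p of limma, over all genes tested, was under 0.05, and "higher" and "lower" stand for such calls. The 457 called genes were 5.92% of those tested, 4.68% for higher in head and 1.24% for lower, and the median difference over all genes was −0.01. For 181 higher and 50 lower genes all 4 arrays lay above the median, so that a fold could be measured. These folds ran from 1.25 to 22.5 for the higher genes (median 2.34) and from 1.35 to 9.82 for the lower ones (median 2.20). Where the dimmer side reached below the median, that side was raised to it and the fold is a lower bound, written as "at least", as for 157 higher and 45 lower genes. The number of arrays limits the precision of all these values. The call count was 256 without head replicate 2 and 238 without trunk replicate 1, and 331 and 330 without head replicate 1 and trunk replicate 2. Higher genes then numbered 175 without head replicate 2 and 185 without trunk replicate 1. Lower genes numbered 61 without head replicate 1, 53 without trunk replicate 1 and 51 without trunk replicate 2. In all, 161 genes were called without each of the 4 arrays, 129 higher and 32 lower. For a called gene given with its own values that did not pass without some array or under another setting, such as a fit to signals raised to the array median, the highest adjusted p found is given with its gene group. For larger groups the number of calls that held in all these fits is given too. A fit that left a gene out by its filter or choice of probe sets counts as no loss. Where a named gene was not called but passed in such a fit, the lowest adjusted p found is given, or another that is marked as not the lowest.

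Markers of the regions went with the labels, and markers of commitment to muscle were mostly dim. Myf5, whose locus drives the Cre, was above the median on all 4 arrays, with 9.04 and 9.59 in head and 9.96 and 10.35 in trunk. It was thus 1.8-fold lower in head (−0.84 ± 0.21, a log2 difference of head minus trunk with its standard error, adjusted p = 0.0308). Of 9 markers of myogenic progenitors with a value here, both head arrays lay above the median for 2 (Myf5 and Pax3) and both trunk arrays for 3 (these and Myog). Myod1, Myf6, Des, Eya1 and Met were below the median on all 4 arrays. For Myod1 the values were 5.83 and 6.59 in head and 6.13 and 6.2 in trunk, in which the groups overlapped. The 4 pharyngeal mesoderm markers with a value (Tbx1, Isl1, Tcf21 and Msc) summed to log2 12.3 and 12.9 in head against 8.23 and 8.47 in trunk. The 4 somite markers (Meox1, Tcf15, Pax3 and Sim1) summed to 12.2 and 12.3 in trunk against 9.10 and 8.47 in head. The calls of Myf5 and Myog were lost with an adjusted p of 0.228 for Myf5 without head replicate 1 and 0.496 for Myog with signals raised to the array median.

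**Figure D1:**
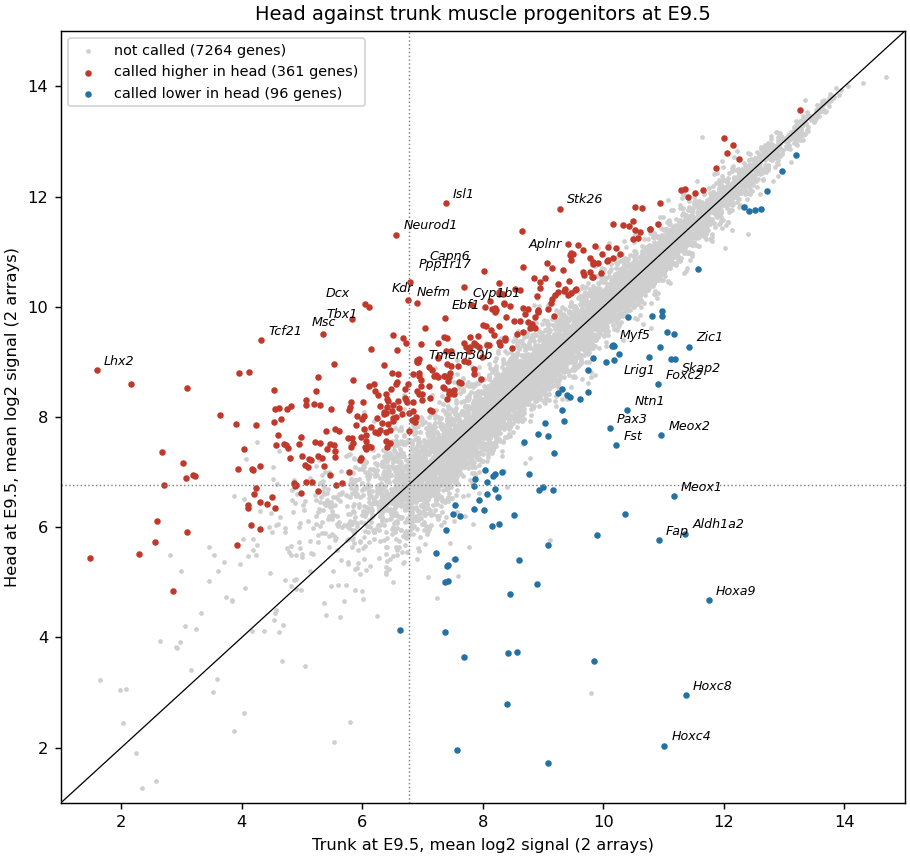
Mean log2 signal of each of the 7721 genes in head (vertical axis) against trunk (horizontal axis) at E9.5, each the mean of 2 arrays. Red points are the 361 genes called higher in head and blue points the 96 called lower; the solid line marks equal signal and dotted lines the median probe set. Isl1 lies farthest above the line among genes bright on both sides, and Hoxa9, Hoxc8 and Hoxc4 lie at the lower right.

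The largest measured difference belonged to Isl1, a LIM-homeodomain factor of cardiac and pharyngeal progenitors, with 11.49 and 12.27 in head and 7.5 and 7.26 in trunk, 22.5-fold higher in head (4.49 ± 0.30, adjusted p = 6.05e-06). Head and trunk arrays did not overlap for any of the 457 called genes, so their separation adds nothing to the calls named here. Kdr, the main VEGF receptor of endothelial cells, was 8.94-fold higher and Aplnr, the apelin receptor, 6.6-fold. Cyp1b1, a cytochrome P450 enzyme, was 6.43-fold higher, and Capn6, a member of the calpain family, 6.19-fold. The kinase Stk26 had 11.65 and 11.90 in head and 9.27 and 9.29 in trunk, 5.64-fold higher with close replicates (2.5 ± 0.13). The 2 probe sets that passed the filter differed in size for Stk26 (1.61 and 2.5), Aplnr (1.33 and 2.72) and Isl1 (3.6 and 4.49). The folds of these genes thus depend on the probe set, while those of Cyp1b1 lay close (2.57 and 2.68). Ebf1, a transcription factor of the early B-cell factor family, was 5.42-fold higher and Tmem30b, a subunit of lipid flippases, 5.07-fold. Among genes dim on at least 1 trunk array, the neurogenic factor Neurod1 was at least 22.2-fold higher with 11.16 and 11.46 in head and 6.21 and 6.91 in trunk. Ppp1r17, an inhibitor of protein phosphatases, was at least 11.0-fold higher. The call of Aplnr was lost with an adjusted p of 0.105 without head replicate 2.

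In the other direction, the homeobox gene Meox2 showed the largest measured difference, with 7.78 and 7.56 in head and 11.03 and 10.89 in trunk, 9.82-fold lower in head (−3.3 ± 0.22, adjusted p = 5.90e-06). Fst encodes follistatin, which binds activins and BMPs, and was 6.64-fold lower. The forkhead factor Foxc2 was 4.96-fold lower, Pax3 4.93-fold, the guidance cue Ntn1 4.82-fold and the zinc finger factor Zic1 4.44-fold. The adaptor gene Skap2 was 4.41-fold lower and Lrig1, a brake on growth factor receptors, 4.2-fold. Fap, a cell surface protease of mesenchyme, had the smallest p of all genes tested, with 5.43 and 6.09 in head and 10.99 and 10.85 in trunk (at least 17.6-fold lower, −5.16 ± 0.24, adjusted p = 4.39e-07). Both head arrays were dim and both trunk arrays bright. The call of Zic1 was lost with an adjusted p of 0.0799 without trunk replicate 2.

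The stretch upstream of 4 called genes is shown here. Isl1 and Otx2 stand for the genes higher in head and Hoxa5 for the Hox genes lower in head. Cdh15 was the only gene lower in head among 30 skeletal muscle differentiation genes, of which 4 were higher. Each stretch is the 250 bases before the start of the gene in RefSeq (build GRCm38.p6), printed on the gene's strand. Capitals mark CAGCTG (an E-box, the kind of site that myogenic and neurogenic bHLH factors bind), TAATTA (a core of homeodomain sites) and TGACAG or its complement CTGTCA (a site of Meis and related factors). The windows lie at chr13:116309689-116309938 (Isl1, minus strand), chr14:48667645-48667894 (Otx2, minus), chr6:52204588-52204837 (Hoxa5, minus) and chr8:122848124-122848373 (Cdh15, plus).
Isl1: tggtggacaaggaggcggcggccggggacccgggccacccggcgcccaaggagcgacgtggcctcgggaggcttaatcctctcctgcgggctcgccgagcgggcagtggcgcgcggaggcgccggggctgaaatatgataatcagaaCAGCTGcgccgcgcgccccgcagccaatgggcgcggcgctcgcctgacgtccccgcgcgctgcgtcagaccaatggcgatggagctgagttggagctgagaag
Otx2: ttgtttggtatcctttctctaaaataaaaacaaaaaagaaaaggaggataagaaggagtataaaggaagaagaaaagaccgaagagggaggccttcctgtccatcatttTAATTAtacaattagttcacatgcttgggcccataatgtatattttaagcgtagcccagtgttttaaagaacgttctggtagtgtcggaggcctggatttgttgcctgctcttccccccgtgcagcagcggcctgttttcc
Hoxa5: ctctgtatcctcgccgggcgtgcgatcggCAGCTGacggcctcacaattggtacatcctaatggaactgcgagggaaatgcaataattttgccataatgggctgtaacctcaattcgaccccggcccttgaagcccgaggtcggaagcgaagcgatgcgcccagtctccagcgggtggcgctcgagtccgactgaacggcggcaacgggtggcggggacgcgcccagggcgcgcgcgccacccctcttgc
Cdh15: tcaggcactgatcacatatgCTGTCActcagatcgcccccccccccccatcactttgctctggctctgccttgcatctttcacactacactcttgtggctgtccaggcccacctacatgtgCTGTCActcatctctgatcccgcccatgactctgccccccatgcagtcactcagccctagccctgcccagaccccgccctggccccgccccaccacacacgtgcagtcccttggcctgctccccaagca
The Isl1 and Hoxa5 windows each hold 1 CAGCTG, the Otx2 window 1 TAATTA and the Cdh15 window 2 matches of TGACAG, all as its complement. Over the longer window of 250 bases before to 50 after the start, searched on both strands, CAGCTG occurred in 13.6% of the 6289 tested genes with a window. It occurred in 21.2% of 273 genes higher in head and 13.6% of 66 genes lower in head. TAATTA was found in 2.23%, 2.56% and 1.52% of the same sets and TGACAG in 15.9%, 18.3% and 22.7%. The median GC content of the sets was 61.7%, 62.7% and 59.3%. A match describes the letters and is no evidence of binding. The end of TGACAG and the start of CAGCTG share letters, so 1 stretch can hold both. The call of Otx2 was lost with an adjusted p of 0.133 without head replicate 2, and that of Cdh15 with one of 0.203 without trunk replicate 2.

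Most regulators of the pharyngeal mesoderm were higher in head. Of 12 tested members of the list 11 were higher and none lower (median 3.91), against the 4.68% of all genes that were higher. Tbx1, the T-box factor whose loss disrupts the branchial arches, had 9.93 and 10.06 in head and 6.05 and 6.19 in trunk, which is at least 9.31-fold higher in head (3.87 ± 0.24, adjusted p = 3.53e-06). The bHLH repressor Msc had 9.45 and 10.11 in head and 5.49 and 6.16 in trunk (at least 8.03-fold higher), and the related bHLH factor Tcf21 9.28 and 9.5 in head and 2.84 and 5.79 in trunk (at least 6.15-fold). On all of these the trunk arrays were dim and the head arrays bright. All 3 Ebf factors were higher: Ebf1 with 9.75 and 9.86 in head and 7.48 and 7.25 in trunk, Ebf2 with 10.89 and 10.50 in head and 9.33 and 8.98 in trunk (2.91-fold higher) and Ebf3 with 11.24 and 10.95 in head and 10.17 and 9.98 in trunk (2.02-fold, a call lost with an adjusted p of 0.175 without head replicate 1). Of the 3 probe sets of Ebf1 all were higher in head, with differences from 1.41 to 2.44, so the order of the Ebf factors depends on the probe set. In trunk, Ebf2 and Ebf3 were still well above the median, unlike Tbx1.

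The LIM-homeodomain factor Lhx2, a regulator of head muscle and eye, had 8.6 and 9.1 in head and 1.62 and 1.57 in trunk, at least 4.23-fold higher in head (7.26 ± 0.68, with trunk far below the median). Its relative Lhx8 had 6.24 and 8.08 in head and 3.29 and 2.76 in trunk, where head replicate 1 itself was dim. Tlx1, a homeobox factor of the branchial arches and spleen, had 9.08 and 7.96 in head and 2.02 and 4.15 in trunk (at least 3.36-fold higher), and Six2 had 8.19 and 8.24 in head and 6.88 and 6.16 in trunk (at least 2.61-fold). Foxc1, which is needed in head and somite mesoderm alike, was the member without a call and was named after its values were seen: with 9.22 and 9.58 in head and 10.34 and 10.32 in trunk its values were lower in head (−0.93 ± 0.38, adjusted p = 0.239). Because these are bulk samples, fewer cells of a kind and less RNA per cell cannot be told apart for any gene here. The calls of Lhx8 and Six2 were lost with an adjusted p of 0.708 for Lhx8 with signals raised to the array median and 0.0635 for Six2 without trunk replicate 2.

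**Figure D2:**
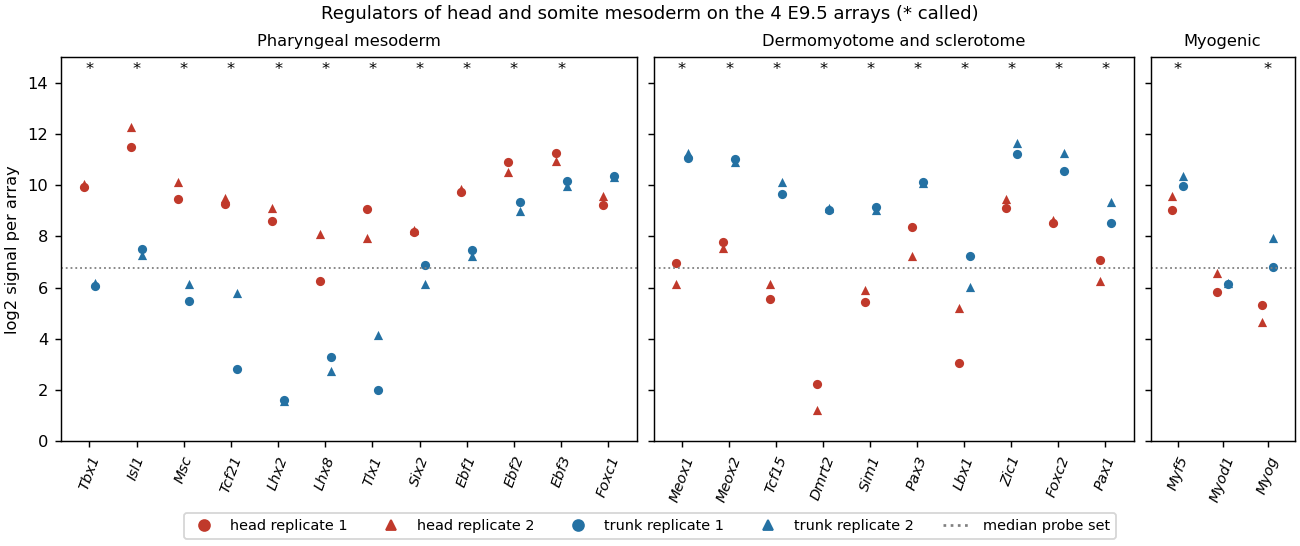
Log2 signal on each of the 4 E9.5 arrays for regulators of pharyngeal mesoderm, of dermomyotome and sclerotome, and of myogenesis. Red marks head and blue trunk, circles replicate 1 and triangles replicate 2; the dotted line is the median probe set and an asterisk marks a called gene. Head lies above trunk for the pharyngeal genes other than Foxc1 and below trunk for the somite genes, while Myod1 overlaps and is dim throughout.

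Heart regulators from the same mesoderm lay higher in head, mostly without a call. Of 7 tested cardiac progenitor regulators 2 were higher, Isl1 and Mef2c (9.21 and 9.53 in head and 7.74 and 8.79 in trunk, 2.15-fold), with a median of 1.10 and all 7 differences above 0. Both head arrays were above both trunk arrays for 6 of them, beside 22.3% of all genes. By limma 6 had an unadjusted p under 0.05, beside 1255 of all 7721 genes. Nkx2-5, an early heart factor, was around the median in head (6.91 and 6.26 in head and 4.84 and 5.59 in trunk, adjusted p = 0.185), and Tbx2 had 5.88 and 7.27 in head and 2.22 and 5.53 in trunk (adjusted p = 0.0886, but 0.00161 without trunk replicate 2). Of 8 cardiac contractile genes 1 was higher, the slow myosin Myh7, which skeletal muscle shares, with 9.34 and 8.1 in head and 5.17 and 5.35 in trunk (at least 3.85-fold). The 4 fixed markers of working heart muscle stayed dim: Myh6, Tnni3 and Nppa were below the median on all 4 arrays, and Myl7 lay above it only on head replicate 1. The call of Mef2c was lost with an adjusted p of 0.364 without trunk replicate 1.

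Most dermomyotome regulators were lower in head. Of 13 tested members of the dermomyotome and limb myoblast list 8 were lower and none higher (median −2.30), beside 1.24% of all genes that were lower. Meox1, the partner of Meox2 in somite patterning, had 6.98 and 6.15 in head and 11.07 and 11.27 in trunk (at least 19.6-fold lower, −4.61 ± 0.33). The bHLH factor Tcf15, or paraxis, which keeps somites epithelial, had 5.55 and 6.16 in head and 9.67 and 10.13 in trunk (at least 8.67-fold). Dmrt2, a factor of the dermomyotome that acts above Myf5, had 2.23 and 1.21 in head and 9.05 and 9.1 in trunk (at least 4.91-fold), and Sim1 had 5.45 and 5.92 in head and 9.14 and 9.03 in trunk (at least 4.92-fold). These 4 were bright in trunk, and head arrays were below the median for all but replicate 1 of Meox1. Pax3 kept a signal above the median in head, with 8.37 and 7.23 in head and 10.13 and 10.08 in trunk. Lbx1, a factor of migrating limb myoblasts, had 3.07 and 5.2 in head and 7.22 and 6.04 in trunk, dim on head and on trunk replicate 2. The chemokine receptor Cxcr4 of the same cells had 8.38 and 8.62 in head and 7.69 and 7.64 in trunk and no call (adjusted p = 0.0752, but 0.0334 without trunk E11.5 replicate 1). The calls of Lbx1 and Zic1 were lost with an adjusted p of 0.732 for Lbx1 with signals raised to the array median and 0.0799 for Zic1 without trunk replicate 2.

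Sclerotome genes, which mark the part of the somite that forms vertebrae and ribs, were split. Of 6 tested 2 were lower, Foxc2 with 8.54 and 8.65 in head and 10.56 and 11.26 in trunk and Pax1, a regulator of vertebral bodies, with 7.09 and 6.25 in head and 8.54 and 9.33 in trunk (at least 3.99-fold). Uncx, which marks the posterior part of each sclerotome, had 5.69 and 5.85 in head and 8.89 and 9.33 in trunk and was not called (adjusted p = 0.132, standard error 1.13), although the groups did not overlap. It was called in 6 of the other fits, at an adjusted p of 0.000726 with the 4 arrays fitted alone (standard error 0.30) and 6.14e-04 with signals raised to the array median. None of 9 genes of the presomitic mesoderm and its segmentation clock was called by limma, with 3 at an unadjusted p under 0.05. The nearest was the Notch ligand Dll1, with 8.83 and 8.79 in head and 9.92 and 9.67 in trunk (adjusted p = 0.0564, but 0.0123 without trunk E11.5 replicate 1), followed by the posterior factor Cdx2 (5.97 and 5.46 in head and 7.05 and 7.86 in trunk, adjusted p = 0.128, but 0.0304 without the intensity trend). Of 4 Zic genes 2 were lower, Zic1 with 9.11 and 9.44 in head and 11.23 and 11.63 in trunk and Zic4 with 5.56 and 2.65 in head and 7.18 and 7.57 in trunk. Zic5 and Zic2 were not called (−0.64 and −0.06). The calls of Pax1, Zic1 and Zic4 were lost with an adjusted p of 0.0661 for Pax1 and 0.0799 for Zic1 without trunk replicate 2 and 0.155 for Zic4 without head replicate 2.

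Hox genes were lower in head across all 4 clusters. Of 31 on the array 18 passed the filter on low values, and 15 of these were lower and none higher. Of the 15 calls 7 held in all fits that tested them. Both trunk arrays lay above the median for 17 of the 31, both head arrays for 0, and both head arrays below it for 26. By cluster, 4 of 5 tested genes were lower in HoxA, 5 of 6 in HoxB, 3 of 4 in HoxC and 3 of 3 in HoxD. The anterior paralog groups 1 to 4 had a median difference of −1.82 over 8 genes (7 lower) and groups 5 to 13 one of −3.86 over 10 genes (8 lower). The 9 genes of groups 10 to 13, which pattern the lumbar and tail levels, were below the median on all 4 arrays.

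Among groups 4 to 9, Hoxa9 had 5.35 and 3.99 in head and 11.24 and 12.25 in trunk (at least 31.2-fold lower in head, −7.08 ± 0.56), Hoxc8 4.33 and 1.56 in head and 11.26 and 11.48 in trunk (at least 24.0-fold) and Hoxc4 1.87 and 2.2 in head and 10.67 and 11.35 in trunk (at least 18.8-fold). Hoxa5, whose upstream bases are printed above, had 4.51 and 2.65 in head and 9.53 and 10.17 in trunk (at least 8.39-fold). On these genes every trunk array was bright and every head array dim. Hoxb4 had 3.35 and 4.11 in head and 8.62 and 8.49 in trunk (at least 3.43-fold) and Hoxb5 3.54 and 2.02 in head and 8.44 and 8.36 in trunk (at least 3.07-fold). Groups 1 to 3 hold the Hox genes that reach farthest forward in the embryo, into the hindbrain and arches. Of these, Hoxd1 had 4.7 and 5.25 in head and 8.62 and 9.17 in trunk (at least 4.32-fold) and Hoxb1 5.76 and 6.28 in head and 8.2 and 8.09 in trunk (at least 2.58-fold), both dim on each head array. Hoxa2, which gives the second arch its identity, had 6.36 and 7.01 in head and 8.43 and 7.99 in trunk, Hoxa3 6.91 and 6.73 in head and 8.26 and 7.87 in trunk and Hoxb3 6.97 and 6.04 in head and 8.0 and 7.87 in trunk, with one head array of each just above the median. Hoxb2 had 6.76 and 7.29 in head and 8.42 and 8.3 in trunk and was not called (adjusted p = 0.0912), although it passed in 4 of the other fits (lowest 0.00605 with signals raised to the array median). Hoxc9 overlapped (7.13 and 4.14 in head and 7.07 and 8.47 in trunk) and passed at 0.0232 without head replicate 1. Hoxa7 was dim on all 4 arrays and passed at 0.0182 without the intensity trend. The Hox cofactor Meis1 was also lower (8.7 and 9.49 in head and 10.96 and 10.54 in trunk, 3.16-fold), as 1 of 4 cofactors tested, while Meis2 had 11.30 and 11.31 in head and 11.53 and 11.32 in trunk. The calls lost had an adjusted p of 0.175 for Hoxa2, 0.233 for Hoxa3 and 0.109 for Hoxb1 without trunk replicate 1, 0.0757 for Hoxb6 and 0.0523 for Hoxd8 without trunk replicate 2, 0.258 for Hoxc6 and 0.152 for Meis1 without head replicate 1, 0.237 for Hoxb3 without head replicate 2 and 0.245 for Hoxd9 with signals raised to the array median.

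**Figure D3:**
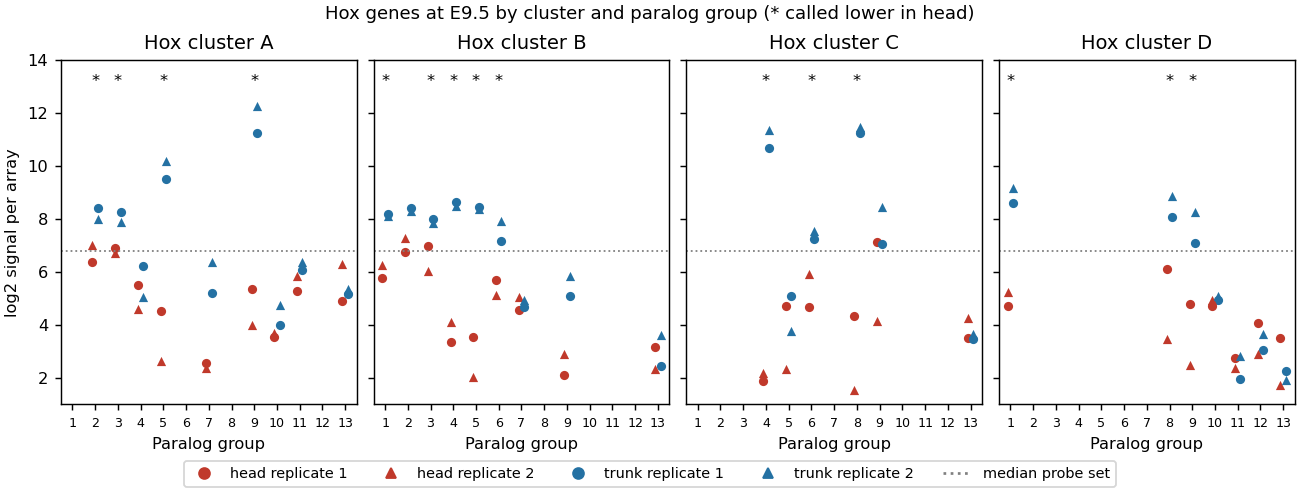
Log2 signal of the 31 Hox genes on the 4 E9.5 arrays, placed by cluster (panels) and paralog group (horizontal axis). Red marks head and blue trunk, circles replicate 1 and triangles replicate 2; the dotted line is the median probe set and an asterisk marks a gene called lower in head. The 17 genes with both trunk arrays above the line are all of groups 1 to 9, and no gene has both head arrays above it.

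Muscle commitment and differentiation genes went both ways. Of 14 myogenic factors and cofactors 2 were higher in head, Msc and Mef2c, and 2 lower, Myf5 and Myog, with a median of −0.01. Myog, which drives terminal differentiation, had 5.34 and 4.66 in head and 6.81 and 7.92 in trunk: dim in head and above the median in trunk (at least 1.5-fold lower, −2.37 ± 0.36, adjusted p = 0.00199). Mef2d, a partner of the myogenic factors, had 9.48 and 9.27 in head and 8.62 and 8.67 in trunk without passing (adjusted p = 0.0583, but 0.0375 without head E10.5 replicate 2). Of 30 skeletal muscle differentiation genes 4 were higher, 1 lower and 25 not called (median 0.18). Besides Myh7 the higher ones were Tpm2, a tropomyosin (10.13 and 10.43 in head and 9.27 and 9.42 in trunk, 1.91-fold), and 2 genes dim on all 4 arrays, the fetal myosin Myh8 and the acetylcholine receptor subunit Chrnb1. The lower one was Cdh15, or M-cadherin, an adhesion molecule of muscle precursors, with 5.79 and 6.68 in head and 7.23 and 7.77 in trunk (at least 1.65-fold). The direction of Tpm2 turned without probe sets of the suffixes _s, _x and _a (−0.27, adjusted p = 0.8). The other calls lost had an adjusted p of 0.496 for Myog, 0.996 for Chrnb1 and 0.996 for Myh8 with signals raised to the array median, 0.364 for Mef2c without trunk replicate 1, 0.228 for Myf5 without head replicate 1 and 0.203 for Cdh15 without trunk replicate 2, and Tpm2 without head replicate 2 one of 0.106.

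Of 15 genes of the head, forebrain and eye list on the array 5 were bright enough to be tested, of which 3 were higher and none lower (median 3.37), Lhx2 among them. The other two, the eye and brain regulator Pax6 (6.27 and 6.55 in head and 6.99 and 7.36 in trunk) and the zinc finger gene Sall3 (5.88 and 5.38 in head and 6.97 and 6.88 in trunk), had both head arrays below both trunk arrays and were not called (adjusted p = 0.619 and 0.604). Otx2, which specifies forebrain and midbrain, had 8.34 and 8.87 in head and 2.48 and 1.84 in trunk (at least 3.56-fold higher, 6.44 ± 1.26). En2, a marker of the midbrain and of first arch muscle precursors, had 7.62 and 8.22 in head and 4.74 and 4.34 in trunk (at least 2.21-fold). Of 19 neural crest and ectomesenchyme genes 3 were higher: Dlx2, which patterns the arches (8.18 and 8.38 in head and 5.82 and 6.2 in trunk, at least 2.84-fold), and the mesenchymal homeobox genes Prrx2 (9.94 and 9.96 in head and 8.38 and 7.94 in trunk, 3.47-fold) and Prrx1 (9.74 and 9.76 in head and 8.33 and 8.9 in trunk, 2.2-fold). Dlx5 was near the median in head (7.03 and 7.16 in head and 4.17 and 4.87 in trunk, adjusted p = 0.0973, but 0.0251 with the 4 arrays fitted alone). Twist1, a mesenchymal bHLH factor, lay lower in head without passing (8.89 and 8.62 in head and 9.56 and 10.16 in trunk, adjusted p = 0.0583, but 0.0291 without trunk E11.5 replicate 2). Among the fixed crest markers Sox10 had 6.87 and 6.35 in head and 6.9 and 6.04 in trunk, in which the groups overlapped, and Foxd3 was above the median only on trunk replicate 1. Tfap2b had 6.9 and 6.91 in head and 7.49 and 7.23 in trunk, with both head arrays below both trunk arrays and no call (adjusted p = 0.868 by limma). The summed level of the 4 crest markers was log2 9.06 and 9.20 in head and 8.87 and 8.56 in trunk. The brightest of them was Dlx2 in head and Tfap2b in trunk. The calls of Otx2 and Prrx1 were lost with an adjusted p of 0.133 for Otx2 without head replicate 2 and 0.243 for Prrx1 without trunk replicate 1.

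Most neuronal transcripts tested were higher in head. Of 22 neuronal genes 14 were higher and none lower, with a median of 1.52. Of the 14 calls 5 held in all fits that tested them. Dcx, a microtubule protein of young migrating neurons, had 9.6 and 10.50 in head and 5.68 and 6.41 in trunk (at least 9.68-fold higher), and the neurofilament gene Nefm 9.48 and 10.77 in head and 5.95 and 7.55 in trunk (at least 7.83-fold). The neuronal tubulin Tubb3 had 7.82 and 8.47 in head and 3.44 and 5.66 in trunk (at least 2.59-fold) and the RNA-binding protein gene Elavl3 8.14 and 8.5 in head and 6.43 and 6.39 in trunk (at least 2.92-fold). Trunk arrays were dim for Dcx, Tubb3 and Elavl3, and head replicate 2 exceeded replicate 1 on all 4 of these genes. Of 5 neurogenic bHLH factors 3 were higher, Neurod1, Nhlh1 (at least 2.29-fold) and Neurog1 (8.36 and 8.61 in head and 3.04 and 6.03 in trunk, at least 3.28-fold), the last of which founds cranial sensory ganglia. Neurog2 had 7.18 and 7.16 in head and 8.59 and 8.8 in trunk and no call (adjusted p = 0.329), but was called lower in head at 0.0133 with the 4 arrays fitted alone and 0.0115 with signals raised to the array median. Of 9 neural progenitor genes 3 were higher: the Iroquois genes Irx3 (11.27 and 10.62 in head and 9.21 and 9.68 in trunk, 2.82-fold) and Irx5 (9.35 and 9.24 in head and 7.71 and 8.06 in trunk, 2.67-fold), and Fabp7 (at least 2.98-fold). Sox2 and Hes5 were bright on all 4 arrays (−0.06 and −0.26, neither called) and Sox1 was dim on all. The calls of Neurog1, Nhlh1 and Fabp7 were lost with an adjusted p of 0.0667 for Neurog1 and 0.06 for Nhlh1 without head replicate 2 and 0.285 for Fabp7 without trunk replicate 1.

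The head arrays also differed from each other in these transcripts. Head replicate 2 was above replicate 1 for 19 of the 22 neuronal genes, by a median of 0.95, and for 20 of 23 endothelial genes, by 0.68, against 54.2% of all genes and a median of 0.04. The 5 fixed neuron markers summed to log2 10.8 and 11.7 in head and 8.37 and 8.95 in trunk, and all 5 were called higher. The calls of Stmn2 and Elavl4 among them were lost with an adjusted p of 0.369 for Stmn2 with signals raised to the array median and 0.136 for Elavl4 without trunk replicate 1. What part neuronal RNA has in the other differences was not tested.

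Most endothelial genes were higher in head as well. Of 23 tested 14 were higher, none was lower, and all 23 differences were above 0 (median 1.97). Of the 14 calls 6 held in all fits that tested them. Kdr had 9.84 and 10.30 in head and 7.0 and 6.82 in trunk, the stem and endothelial cell antigen Cd34 8.1 and 8.82 in head and 4.8 and 5.67 in trunk (at least 3.23-fold higher) and Plvap, of endothelial diaphragms, 8.41 and 9.19 in head and 6.52 and 6.48 in trunk (at least 4.09-fold). The tight junction gene Cldn5 had 8.35 and 9.21 in head and 6.43 and 6.76 in trunk (at least 4.02-fold) and the lymphatic and venous VEGF receptor Flt4 8.22 and 8.71 in head and 6.66 and 5.77 in trunk (at least 3.23-fold). Sox17, of arterial endothelium and of endoderm, had 8.3 and 10.15 in head and 6.58 and 6.59 in trunk (at least 5.46-fold). Trunk was dim on both arrays for Cd34, Plvap, Flt4 and Sox17 and close to the median for Kdr. The 5 fixed endothelial markers summed to log2 10.7 and 11.2 in head and 8.34 and 8.42 in trunk; Kdr, Cdh5, Tek and Cldn5 were called, and Pecam1 was dim on all 4 arrays. What part endothelial RNA has in the other differences was not tested. The calls of Cdh5 and Tek were lost with an adjusted p of 0.054 for Cdh5 with signals raised to the array median and 0.136 for Tek without head replicate 2.

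Blood transcripts were bright on both sides. The embryonic globin Hbb-y had 13.86 and 13.66 in head and 13.42 and 13.27 in trunk and Hbb-bh1 13.21 and 12.95 in head and 11.73 and 11.54 in trunk, and neither was called (adjusted p = 0.407 and 0.327). Hbb-bh1 was called higher in head in 4 of the other fits, at 9.17e-04 with the 4 arrays fitted alone. The embryonic alpha globin Hba-x had 8.86 and 8.94 in head and 7.41 and 7.01 in trunk (adjusted p = 0.0905). Hba-x was called higher in head in 7 of the other fits. One of these was the fit of the 4 arrays alone, at 0.0103, which was not the lowest value. Of 8 erythroid genes 3 were higher and none lower (median 1.44): Hemgn, Mgst3 and Tal1, a factor of blood formation, each below the median on both trunk arrays. The 4 erythroid markers with a value summed to log2 14.6 and 14.4 in head and 13.8 and 13.7 in trunk. Of 9 macrophage and leukocyte genes 3 were higher, Laptm5 (7.8 and 8.23 in head and 6.01 and 5.82 in trunk, at least 2.37-fold), Coro1a and Lcp1. Of the 4 fixed macrophage markers Ptprc and C1qb were dim on all 4 arrays. Csf1r had 8.58 and 7.33 in head and 7.4 and 6.59 in trunk, and Adgre1 7.08 and 6.74 in head and 6.94 and 6.53 in trunk. Neither of these was called (adjusted p = 0.427 and 0.868 by limma). The macrophage markers summed to log2 9.17 and 8.39 in head and 8.29 and 7.92 in trunk. The calls lost had an adjusted p of 0.415 for Tal1, 0.0639 for Laptm5, 0.678 for Coro1a and 0.188 for Lcp1 with signals raised to the array median and 0.262 for Hemgn and 0.2 for Mgst3 without trunk replicate 1.

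Some epithelial genes were higher in head. Of 29 on the array 22 were tested, and 8 of these were higher and none lower (median 0.92). Of the 8 calls 2 held in all fits that tested them. The adhesion gene Epcam had 10.19 and 10.28 in head and 8.31 and 8.23 in trunk (3.9-fold higher, 1.96 ± 0.20), the protease inhibitor Spint2 10.68 and 10.37 in head and 8.86 and 8.85 in trunk (3.18-fold) and the epithelial splicing factor Esrp1 10.51 and 10.36 in head and 8.22 and 8.33 in trunk (4.48-fold). The keratins Krt8 and Krt18 were 2.47-fold and 3.04-fold higher, and Cdh1, or E-cadherin, had 9.64 and 9.35 in head and 8.24 and 8.12 in trunk (2.49-fold). The 4 fixed epithelial markers summed to log2 11.9 on both head arrays and to 10.6 and 10.2 in trunk, and their part in the other differences was not tested. Endoderm genes were split: Sox17 and Hhex were higher of 6 tested. Afp, the yolk sac and liver protein alpha-fetoprotein, ran the other way with 3.49 and 2.5 in head and 10.45 and 9.14 in trunk, and Ttr had 5.28 and 4.94 in head and 8.44 and 6.73 in trunk. Neither was called (adjusted p = 0.107 and 0.304), with standard errors of 2.19 and 1.13, although both head arrays lay below both trunk arrays. Both were called lower with the 4 arrays fitted alone, Afp at an adjusted p of 0.000595 (standard error 0.54) and Ttr at 0.0484 (0.57). The calls lost had an adjusted p of 0.203 for Krt8 and 0.178 for Krt18 without trunk replicate 2, 0.0611 for Esrp1 without trunk replicate 1, 0.21 for Cdh1 without head replicate 1 and 0.142 for Hhex without head replicate 2.

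**Figure D4:**
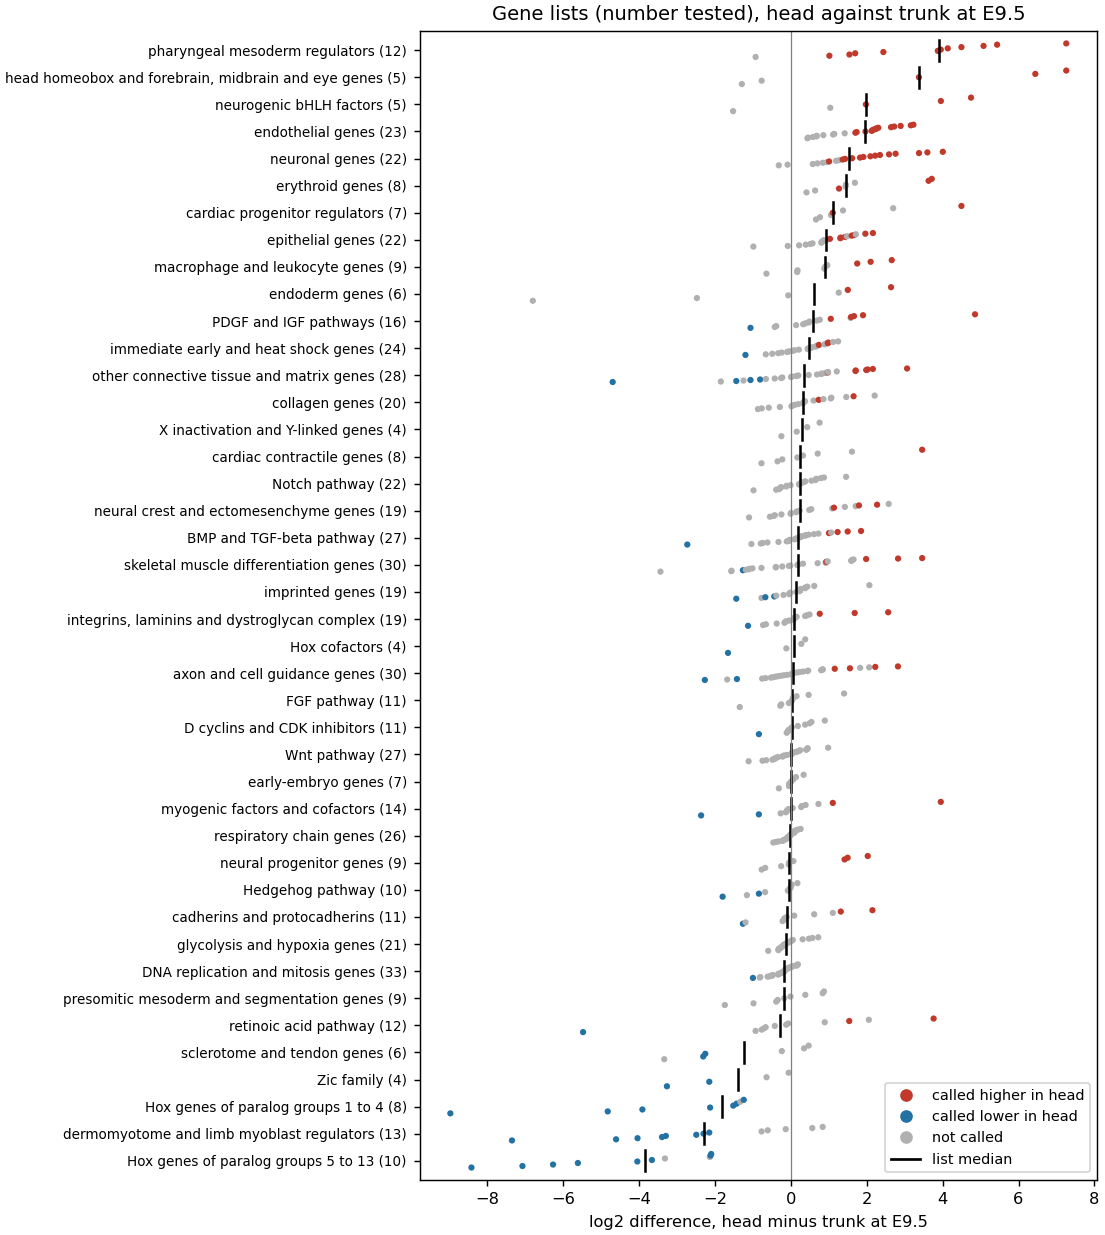
Log2 difference, head minus trunk, of each tested member of the 42 gene lists, sorted by the median of the list (black bar), with the number tested after each name. Red points were called higher in head, blue points lower and grey points neither. Pharyngeal mesoderm regulators have the highest median (3.91) and Hox genes of groups 5 to 13 the lowest (−3.86); the respiratory chain genes sit close to 0.

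Retinoic acid, the vitamin A derivative that sets trunk identity and induces Hox genes, is made by Aldh1a2. Aldh1a2 had 4.37 and 7.4 in head and 11.79 and 10.93 in trunk (at least 19.3-fold lower in head, −5.48 ± 0.77, adjusted p = 0.00129), with both trunk arrays bright and head replicate 1 dim. Rdh10, which catalyses the step before, had 10.08 and 9.61 in head and 10.45 and 10.78 in trunk and was not called (adjusted p = 0.072). Cyp26a1, which degrades retinoic acid, had 6.76 and 8.17 in head and 6.37 and 4.44 in trunk (adjusted p = 0.0886, but 0.0241 without trunk replicate 1). The retinoid receptor Rxrg was higher in head (6.88 and 7.01 in head and 2.47 and 3.89 in trunk, at least 1.13-fold), as was the binding protein Crabp1 (7.94 and 8.61 in head and 7.08 and 6.39 in trunk, at least 2.53-fold). In all 2 of 12 genes of the pathway were higher and 1 lower (median −0.27). The call of Rxrg, whose head signal lies at the median, and that of Crabp1 were lost with an adjusted p of 0.621 for Rxrg with signals raised to the array median and 0.202 for Crabp1 without trunk replicate 2.

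Several genes of the insulin-like growth factor (IGF) axis were higher in head. Of 16 tested genes of the PDGF and IGF pathways 5 were higher and 1 lower (median 0.58). The ligand Igf1 had 9.99 and 10.49 in head and 8.44 and 8.24 in trunk (3.73-fold higher, 1.9 ± 0.23). Of the proteins that bind IGFs, Igfbp2 had 9.41 and 9.93 in head and 8.14 and 7.87 in trunk (3.17-fold), Igfbp3 8.59 and 8.54 in head and 6.92 and 7.04 in trunk (3.0-fold) and Igfbp5 13.10 and 13.01 in head and 11.92 and 12.09 in trunk (2.07-fold). The related secreted protein gene Kazald1 had 9.27 and 8.34 in head and 2.62 and 5.28 in trunk (at least 4.09-fold). The one lower gene was Pdgfra, the PDGF receptor of mesenchyme, with 9.95 and 9.88 in head and 11.00 and 10.96 in trunk (2.09-fold lower). Head and trunk did not overlap on any of these 6 genes, which was so for all 457 called genes. The calls of Igfbp5 and Pdgfra were lost with an adjusted p of 0.054 for Igfbp5 and 0.187 for Pdgfra without trunk replicate 1.

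In the BMP and TGF-beta pathway 4 of 27 tested genes were higher in head and 1 lower (median 0.20). The ligand Bmp4 had 8.3 and 9.29 in head and 6.52 and 7.37 in trunk (at least 3.32-fold higher) and Bmp7 8.53 and 7.73 in head and 7.04 and 7.21 in trunk (2.0-fold). Tgfbr2, the receptor that binds TGF-beta, had 9.44 and 9.17 in head and 7.94 and 8.21 in trunk (2.35-fold), and Id4, of a family of BMP targets that inhibit bHLH factors, 10.57 and 10.31 in head and 8.85 and 9.04 in trunk (2.82-fold). The lower gene was the antagonist Fst, with 7.84 and 7.13 in head and 9.84 and 10.59 in trunk (−2.73 ± 0.41). A second antagonist, Grem1, had 7.55 and 7.77 in head and 8.62 and 8.29 in trunk and was not called (adjusted p = 0.0693, but 0.0484 without the intensity trend). Of 10 Hedgehog genes 2 were lower, both co-receptors that help cells receive the ligand: Boc (7.11 and 6.83 in head and 8.69 and 8.85 in trunk, 3.48-fold lower) and Gas1 (11.45 and 12.10 in head and 12.49 and 12.75 in trunk, 1.79-fold lower). The calls lost had an adjusted p of 0.119 for Bmp4, 0.0591 for Tgfbr2 and 0.139 for Id4 without trunk replicate 1, 0.323 for Bmp7 without head replicate 1 and 0.116 for Gas1 without trunk replicate 2.

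No gene of the Notch (22 tested), Wnt (27) or FGF (11) list was called by limma, beside 5.92% of all genes. An unadjusted p under 0.05 was found for 4, 2 and 2 genes, beside 1255 of all 7721. The median differences of the lists were 0.24, 0.01 and 0.03. The lists do not cover the pathways in full. Called genes outside them included Wnt16 (lower in head), the Wnt activator Rspo2 (higher) and the non-canonical Notch ligand Dlk1 (lower). In the Notch list Dll1 came closest, and the ligand Jag1 had 8.97 and 7.33 in head and 6.81 and 6.57 in trunk (adjusted p = 0.179, but 0.0482 without head replicate 2). Among the Wnt genes the secreted modulator Dkk3 had 7.73 and 7.0 in head and 6.13 and 6.64 in trunk (adjusted p = 0.214) and the ligand Wnt6 7.83 and 7.11 in head and 8.32 and 8.11 in trunk (adjusted p = 0.216). Fgfr4, a receptor of muscle progenitors, had 6.53 and 4.85 in head and 7.04 and 7.04 in trunk (adjusted p = 0.0894, but 0.00123 without head replicate 1).

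**Figure D5:**
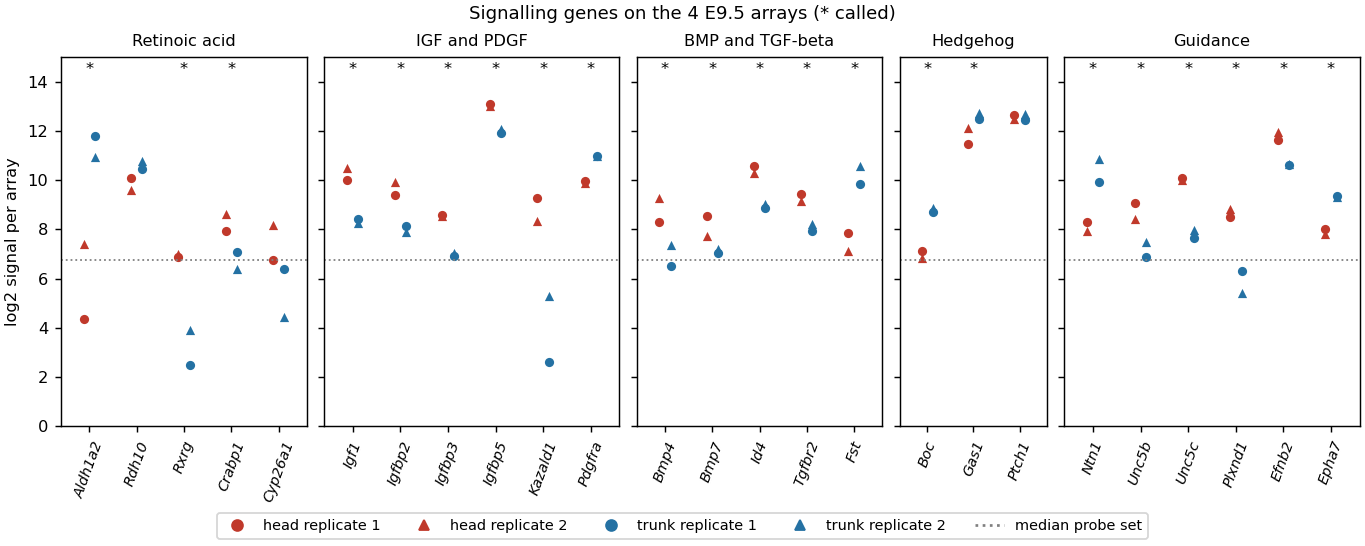
Log2 signal on each of the 4 E9.5 arrays for genes of the retinoic acid, IGF and PDGF, BMP and TGF-beta, and Hedgehog pathways and for guidance genes. Red marks head and blue trunk, circles replicate 1 and triangles replicate 2; the dotted line is the median probe set and an asterisk marks a called gene. Aldh1a2, Fst, Boc and Ntn1 lie lower in head, and Igf1, Igfbp2 and Unc5c lie higher.

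Guidance genes, which steer axons and migrating cells, held a ligand and 2 of its receptors on opposite sides. Ntn1, the ligand netrin, had 8.31 and 7.93 in head and 9.91 and 10.88 in trunk (4.82-fold lower in head). Of its receptors, Unc5c (10.08 and 9.9995 in head and 7.66 and 7.97 in trunk, 4.67-fold higher) and Unc5b (9.08 and 8.41 in head and 6.89 and 7.49 in trunk, 2.94-fold higher) went the other way. The netrin receptor Dcc was too dim to be tested, with 6.35 and 5.59 in head and 6.04 and 5.88 in trunk. Plxnd1, a semaphorin receptor of vessels, had 8.51 and 8.83 in head and 6.29 and 5.41 in trunk (at least 3.73-fold higher), and the ephrin Efnb2 11.63 and 11.95 in head and 10.60 and 10.67 in trunk (2.23-fold). The ephrin receptor Epha7 was lower (8.03 and 7.82 in head and 9.36 and 9.33 in trunk, 2.68-fold). In all 4 of 30 tested genes were higher and 2 lower (median 0.06). The calls of Unc5b and Epha7 were lost with an adjusted p of 0.147 for Unc5b and 0.176 for Epha7 without trunk replicate 1.

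Matrix genes went both ways. Of 28 tested genes of connective tissue and matrix outside the collagens, 7 were higher and 4 lower (median 0.33), and of 20 collagen genes 2 were higher. Of the 11 matrix calls 4 held in all fits that tested them and of the 2 collagen calls 0. Nid1, a linker of basement membranes, had 9.92 and 10.30 in head and 8.04 and 8.21 in trunk (3.96-fold higher), while its paralog Nid2 had 8.54 and 8.47 in head and 9.05 and 9.58 in trunk (1.75-fold lower). Sparc, a collagen-binding protein, had 9.74 and 10.37 in head and 7.98 and 8.72 in trunk (3.27-fold higher) and the proteoglycan Lum 9.61 and 9.25 in head and 7.45 and 7.35 in trunk (4.06-fold). A second small proteoglycan gene, Fmod, ran the other way with 1.92 and 5.5 in head and 8.73 and 8.1 in trunk (at least 3.1-fold lower), dim on both head arrays. Of 19 integrin, laminin and dystroglycan complex genes 3 were higher, Lama4, Agrn and Lama2, the laminin chain of muscle basement membrane (7.23 and 7.79 in head and 5.18 and 4.71 in trunk, at least 1.67-fold). The 1 lower was the laminin receptor Itga6 (9.83 and 9.85 in head and 10.92 and 11.01 in trunk, 2.19-fold lower). Of 11 cadherins Cdh5 and Cdh1 were higher and Cdh15 lower. The calls lost had an adjusted p of 0.325 for Nid2, 0.15 for Itga6 and 0.203 for Cdh15 without trunk replicate 2, 0.261 for Lama2 and 0.054 for Cdh5 with signals raised to the array median, 0.276 for Lama4 and 0.308 for Agrn without trunk replicate 1 and 0.21 for Cdh1 without head replicate 1.

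Few genes of the cell cycle and metabolism lists were called. At the 5.92% called among all genes, lists of this size would hold few calls as well. Of 33 DNA replication and mitosis genes 1 was lower in head, the cyclin Ccne1 of entry into S phase (8.37 and 8.42 in head and 9.47 and 9.32 in trunk, 2.0-fold), and 25 of the 33 differences were below 0 with a median of −0.17. Cdc6 and Ccne2, which act at the same step, had 10.42 and 10.49 in head and 11.03 and 11.10 in trunk and 8.39 and 9.05 in head and 9.76 and 9.29 in trunk (adjusted p = 0.072 and 0.112, but 0.0332 without head E10.5 replicate 1 for Cdc6). None of 21 glycolysis and hypoxia genes and none of 26 respiratory chain genes was called by limma. An unadjusted p under 0.05 was found for 2 and 1 of them, beside 1255 of all 7721 genes. The respiratory chain differences lay between −0.46 and 0.26. Of 19 imprinted genes 3 were lower, Mest (1.35-fold), Meg3 (1.6-fold) and Dlk1, a non-canonical Notch ligand (7.54 and 7.76 in head and 8.82 and 9.36 in trunk, 2.71-fold). Of 24 immediate early and heat shock genes, which can respond to tissue dissociation, Klf6 (1.96-fold), Fos (1.67-fold) and Dusp1 (1.98-fold) were higher and the growth regulator Myc lower (8.08 and 8.17 in head and 9.43 and 9.21 in trunk, 2.29-fold). The median difference of head minus trunk over these 24 genes was 0.49. Trunk replicate 2 was above trunk replicate 1 for 22 of the 24, by a median of 0.43, against 4011 of all 7721 genes (median 0.01). Head replicate 2 was above head replicate 1 for 11 of the 24. The part of handling in the other differences was not tested. The calls lost had an adjusted p of 0.173 for Ccne1, 0.0952 for Klf6, 0.236 for Fos and 0.166 for Myc without trunk replicate 1, 0.168 for Mest, 0.189 for Meg3 and 0.248 for Dlk1 without trunk replicate 2 and 0.278 for Dusp1 without head replicate 2.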

How the data were processed

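Total RNA of the sorted cells was amplified and hybridised as biotinylated cRNA, per the labels. The deposited values are intensities, 1 linear signal per probe set, made with MAS5 and Affymetrix Expression Console per the submitters' processing notes. Neither versions nor a later normalization is given in the sources used here. Percentiles of the 4 arrays differed by at most 0.03 (log2), and no further normalization was applied to the deposited intensities before log2 was taken.

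Of 22690 probe sets, 64 controls, 691 of several genes and 1555 unnamed in the annotation were left out, and 20380 stood for 1 gene (12393 genes); 20351 matched the gene table by Entrez identifier. A probe set needed at least 2 of 12 arrays above that array's median (11738 did), and the one of highest mean represented its gene, leaving 7721. Of 152 called genes with several probe sets, 11 had one of opposite sign.

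limma 3.58.1 (R 4.3.3) fitted 1 mean per group over 6 groups, with eBayes (trend = TRUE; residual degrees of freedom 6, prior 5.87). Tests were two-sided, adjusted by Benjamini and Hochberg's method over the 7721 genes. The fit was tested on simulated data. An exact permutation test of 2 against 2 arrays cannot go below 0.333 and was not used. Across genes, Pearson r was 0.951 between head arrays, 0.959 between trunk arrays and 0.939 to 0.949 between groups.

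The members and 42 gene lists (911 genes, 593 tested) were chosen with earlier results of these data known, so lists carry no test. Named are the 8 largest measured folds and 6 largest bounds each way, Myf5, Myod1, Myog, Pax3, Tbx1, Isl1, Tcf21, Msc and Lhx2, fixed markers, and up to 8 members of smallest p per list. Promoters are RefSeq's. Alternatives covered a fit of the 4 arrays alone, normalization, filters, pseudocount, floor, probe sets, variance model, replicate number and omitted arrays.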

Additional observations from a re-analysis of the deposited data

How the results depend on the processing

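The call count lay between 325 (the 4 arrays fitted alone) and 457 (quantile normalization) over 14 other settings, against 457 as reported, and between 238 and 452 when each of the 12 arrays was left out. Over those omissions the higher genes numbered 175 to 356 and the lower genes 51 to 103. The share of higher genes among the calls fell to 68.4% without head replicate 2, against 79.0% as reported. Of 162 called genes followed, 71 lost their call in no omission or setting that tested them and 91 lost it at least once. Some of the 71, such as Tbx1 and Lhx2, were left out of a setting by its filter or its choice of probe sets. Direction turned for Tpm2 (−0.27 without the suffixes _s, _x and _a) and, with the floor, for Hoxa7 and Met (0.0088 each). Over the omissions Myod1 ranged from −0.33 to 0.43 and Pax7 from −1.49 to 0.26. Sox10 turned with the floor (−0.93) and with the mean of its probe sets (−1.21) and ranged from −0.29 to 0.57 over the omissions, Zic2 turned with the floor (0.14) and ranged from −0.72 to 0.61, Hes5 from −0.60 to 0.090 and Sox2 from −0.36 to 0.25. Of these 9 genes Tpm2 alone had been called. The labels do not say whether the replicate numbers pair the samples. Over all genes the deviations of same-numbered head and trunk replicates had a correlation of 0.01, which cannot settle it. With the replicate number as a block over all arrays 445 genes were called, 430 of them shared, and with a replicate block within stage 418, with 376 shared. Signal under the array median limits what can be said of dim genes.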

Other observations

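Some called genes were neighbours on the genome. Among 3402 pairs of neighbouring tested genes, 28 had both members called: 15 pairs were higher in head, 10 lower and 3 opposite. The 5.92% called refers to single genes, so it is no measure for pairs, and an expected number of pairs was not worked out. Of the 10 lower pairs 6 were neighbours within Hox clusters, and Zic1 with Zic4 was another pair of relatives. Keratins Krt8 and Krt18, neurofilaments Nefl and Nefm, Iroquois genes Irx3 and Irx5, and the IGF-binding protein genes Igfbp2 and Igfbp5 were pairs of relatives higher in head. Unrelated neighbours higher in head included Capn6 and Dcx (2.63 and 4.0) and Kazald1 and Tlx1 (4.85 and 5.44). The opposite pairs were Tlx1 with Lbx1 (−2.49), Kit (1.55) with Pdgfra (−1.07), and Dlx2 with Itga6. Beside the Hox clusters, Skap2, the neighbour of HoxA, was lower in head with 9.17 and 8.93 in head and 11.11 and 11.27 in trunk, while Mtx2, next to HoxD, had 9.39 and 9.99 in head and 10.05 and 10.001 in trunk (adjusted p = 0.512 by limma). No test was made of whether neighbours move together more than other pairs.

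Some called genes outside the lists were singled out after their values were seen. Rspo2, a secreted activator of Wnt signalling, had 9.36 and 9.64 in head and 5.88 and 4.82 in trunk (at least 6.63-fold higher), and Insm1, a factor of newborn neurons, 8.19 and 8.22 in head and 4.82 and 5.78 in trunk (at least 2.71-fold higher). Adh1, an alcohol dehydrogenase that can oxidise retinol, was lower in head with 5.14 and 5.67 in head and 8.12 and 9.09 in trunk (at least 3.54-fold). Hmx1, a homeobox gene of cranial ganglia and the eye region, had 6.26 and 7.26 in head and 2.53 and 2.89 in trunk, with trunk far below the median. Tshz1, a zinc finger gene of the teashirt family, was lower with 9.46 and 9.54 in head and 11.25 and 11.09 in trunk, and so was its neighbour Zadh2 with 9.21 and 8.85 in head and 10.05 and 10.29 in trunk. The call of Hmx1 was lost at an adjusted p of 0.72 by limma with signals raised to the array median, and at 0.165 without head replicate 2.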
